A study of Mus musculus with 4 samples.

Results

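Among neutrophils sorted from tumors and blood, 72 of 2481 cells (2.90%) carried several transcripts of interferon-stimulated genes, and these are called ISG+ cells here. A cell was ISG+ when it held at least 3 UMIs (unique RNA molecules) summed over Isg15, Rsad2, Ifit1, Ifit2, Ifit3 and Oasl2, with at least 2 of these 6 genes detected. All cells had at least 200 detected genes and at most 15% of their UMIs from mitochondrial genes. The comparison cells, called other cells, are the remaining 895 tumor and 1514 blood cells that passed the same limits. There were 52 ISG+ cells among 947 in tumor and 20 among 1534 in blood. The 6 selecting genes were removed before every comparison of expression, and their own levels are given as a description.

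The cells came from 3 untreated FVB mice, an inbred strain, which had been injected with Py7160 cells, a mouse mammary tumor line, and were killed 2 to 3 weeks later with tumors of about 1 cm. Tumors were digested with enzymes, blood of the same mice was treated with red cell lysis buffer, and neutrophils were enriched through Ly6G to about 90% and sorted as CD11b+ Ly6G+ to over 99% purity. Cells of each mouse carried a hashtag antibody, and each tissue's 3 mice went into 1 pooled Drop-seq library, so tissue, library and the way the cells were released cannot be told apart. No tumor-free mice were among the samples. The hashtags assigned 28 tumor and 18 blood ISG+ cells to a mouse. Tumor mice 1, 2 and 3 held 7, 13 and 8 of them, and blood mice 1, 2 and 3 held 5, 6 and 7. Their summed depth without the 6 genes was 5322, 13925 and 5810 UMIs in tumor and 5212, 7548 and 8879 UMIs in blood, against 79149 to 398863 UMIs in the sums of other cells. The 2 RNA libraries shared 20 barcodes, and 0 of these were among the cells kept.

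Type I interferons bind a receptor made of Ifnar1 and Ifnar2, and the signal is carried to the nucleus by a transcription factor complex. The complex binds a short element in target promoters, the interferon-stimulated response element, and switches on a broad antiviral program. Isg15 is a ubiquitin-like protein that is attached to other proteins, Rsad2 (viperin) makes a nucleotide that stops viral RNA synthesis, the Ifit proteins bind foreign RNA, and Oasl2 belongs to the oligoadenylate synthetase family. Neutrophils with such transcripts are a recurring state in single-cell studies of blood and inflamed tissue.

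Promoters are shown for genes of the rule and for genes that were higher in ISG+ cells, because this element is the feature they could share. The core GAAANNGAAA, or TTTCNNTTTC when read from the opposite strand, was searched on both strands in windows from 250 bases before to 50 bases after the annotated start (RefSeq, GRCm38.p6). It occurred in 1131 of 32851 windows in the whole table (3.44%), or in 1079 of 27025 genes (3.99%). Among the 6 selecting genes 4 held it (Isg15, Rsad2, Ifit1 and Ifit3). Capitals mark each match, overlapping ones included. Below are Isg15 (chr4:156200769-156201068, minus strand), Rsad2 (chr12:26456403-26456702, minus strand), Ifit1 (chr19:34640639-34640938, plus strand), Ddx60 (chr8:61927837-61928136, plus strand), Slfn8 (chr11:83020761-83021060, minus strand) and Slfn4 (chr11:83174936-83175235, plus strand), each written 5′ to 3′ along its gene.
Isg15: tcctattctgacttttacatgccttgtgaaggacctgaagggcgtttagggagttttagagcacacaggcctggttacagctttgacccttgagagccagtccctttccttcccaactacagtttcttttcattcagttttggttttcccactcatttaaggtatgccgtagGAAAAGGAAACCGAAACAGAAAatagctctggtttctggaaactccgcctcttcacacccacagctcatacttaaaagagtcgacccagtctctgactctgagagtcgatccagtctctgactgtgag
Rsad2: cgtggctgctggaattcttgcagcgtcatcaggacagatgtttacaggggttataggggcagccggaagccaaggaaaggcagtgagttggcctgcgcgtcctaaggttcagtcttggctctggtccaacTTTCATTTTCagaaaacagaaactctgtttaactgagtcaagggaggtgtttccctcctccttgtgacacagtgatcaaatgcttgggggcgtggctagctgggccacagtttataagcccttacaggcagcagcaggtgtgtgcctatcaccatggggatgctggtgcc
Ifit1: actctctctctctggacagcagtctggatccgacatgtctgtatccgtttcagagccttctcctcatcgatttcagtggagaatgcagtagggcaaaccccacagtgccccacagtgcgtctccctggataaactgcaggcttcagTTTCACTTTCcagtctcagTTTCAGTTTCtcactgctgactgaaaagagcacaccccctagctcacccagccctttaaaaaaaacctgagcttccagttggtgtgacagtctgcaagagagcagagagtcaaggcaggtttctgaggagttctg
Ddx60: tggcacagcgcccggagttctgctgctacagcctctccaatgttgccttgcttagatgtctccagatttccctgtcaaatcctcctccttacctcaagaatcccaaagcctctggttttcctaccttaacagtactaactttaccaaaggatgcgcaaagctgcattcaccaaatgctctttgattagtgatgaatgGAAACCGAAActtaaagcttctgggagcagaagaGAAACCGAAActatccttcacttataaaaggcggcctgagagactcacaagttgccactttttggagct
Slfn8: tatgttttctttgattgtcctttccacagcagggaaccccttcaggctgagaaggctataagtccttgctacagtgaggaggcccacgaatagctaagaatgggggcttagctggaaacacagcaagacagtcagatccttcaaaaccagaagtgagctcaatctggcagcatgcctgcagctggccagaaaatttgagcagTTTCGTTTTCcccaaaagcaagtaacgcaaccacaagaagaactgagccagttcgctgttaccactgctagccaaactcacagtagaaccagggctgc
Slfn4: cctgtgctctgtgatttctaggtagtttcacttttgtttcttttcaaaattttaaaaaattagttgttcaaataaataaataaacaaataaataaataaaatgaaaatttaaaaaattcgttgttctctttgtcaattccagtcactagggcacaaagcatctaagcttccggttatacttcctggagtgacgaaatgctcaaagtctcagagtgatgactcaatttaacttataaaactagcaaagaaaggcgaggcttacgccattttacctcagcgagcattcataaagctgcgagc

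The Isg15 window held 3 overlapping matches that began 78, 72 and 66 bases before the start. Rsad2 held 1 match 120 bases before its start, and Ifit1 held 2 matches at 104 and 85 bases. Ddx60 held the same letters at 53 and 19 bases before its start. The Slfn4 window, by contrast, held no match to these letters. Of the 9 genes that were called higher in tumor ISG+ cells, described further on, 7 were in the promoter table and 4 of those held the core (Ddx60, Ifitm3, Slfn8 and Trim30a). None of the 4 genes called lower in tumor did (0 of 4), and among all genes tested that were in the table it was 52 of 786 (6.62%). A match is a stretch of letters and was not tested as a binding site.

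The tumor and blood cells that met the rule did so with different leading transcripts. In tumor ISG+ cells Rsad2 gave 207 UMIs in 40 of 52 cells and Isg15 gave 145 UMIs in 48 of 52 cells. Oasl2 gave 45 UMIs in 27 cells there, Ifit2 gave 15 in 4 cells, Ifit1 gave 13 in 5 cells and Ifit3 gave 2 in 1 cell. In blood ISG+ cells Oasl2 gave 39 UMIs in 18 of 20 cells, Isg15 gave 29 in 15 cells and Rsad2 gave 17 in 8 cells. Ifit1, Ifit3 and Ifit2 gave 5, 4 and 1 UMIs in blood. The most frequent combination was Isg15 with Rsad2 in tumor, in 36 of 52 cells, and Isg15 with Oasl2 in blood, in 13 of 20 cells. Oasl2 was also spread over the blood cells outside the rule, of which 359 of 1514 (23.7%) held a UMI, against 48 of 895 (5.36%) other cells in tumor. As CPM, the UMIs in 1000000, Oasl2 stood at 1069 CPM in tumor ISG+ cells and 89.6 CPM in other tumor cells, and at 1527 and 389 CPM in blood.

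**Figure D1:**
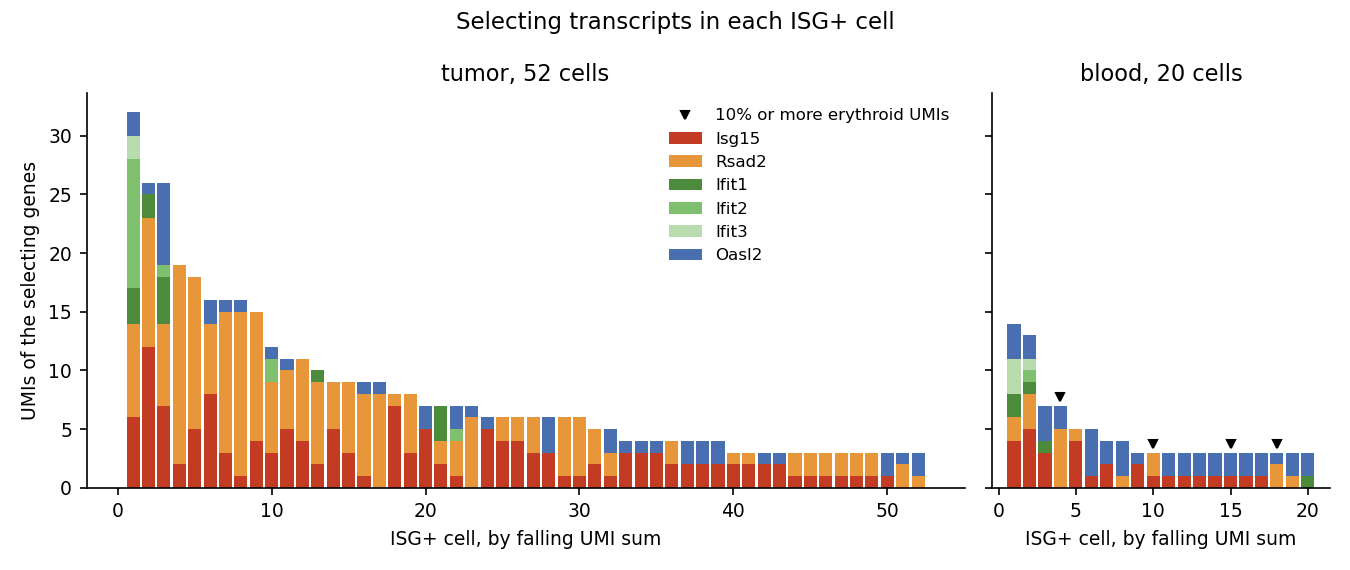
UMIs of the 6 selecting genes (y axis) in each of the 52 tumor and 20 blood ISG+ cells (x axis, ordered by falling sum), with 1 colour per gene and a black triangle over cells with 10% or more erythroid UMIs. The tumor cells reach 32 UMIs and are built mostly of Rsad2 and Isg15, whereas 12 of the 20 blood cells hold 3 UMIs.

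The ISG+ cells differed widely in how many of these transcripts they held. In tumor the sum ran from 3 to 32 UMIs with a median of 6, and 13 cells held 10 or more. In blood the median was 3 UMIs, and 2 cells held 10 or more, with 14 and 13. All 6 genes were detected together in 1 tumor cell and 1 blood cell, while 39 of 52 tumor and 17 of 20 blood cells held 2 of the genes. At the limit of the rule, 13 tumor and 12 blood cells held 3 UMIs and so were just inside. Just outside were 19 tumor and 21 blood cells with 2 UMIs in 2 genes, and 19 tumor and 27 blood cells with 3 or more UMIs of a single gene.

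The label neutrophil was checked against 10 neutrophil markers (S100a8, S100a9, Csf3r, Cxcr2, Ly6g, Retnlg, Mmp9, Mmp8, G0s2 and Il1r2). Together they stood at 78846 CPM in tumor ISG+ cells, 78930 CPM in other tumor cells and 20424 CPM in barcodes of 20 to 60 UMIs, where RNA outside cells weighs most. In blood the levels were 158408, 197782 and 51739 CPM. Per cell, they made up 0.170% to 31.7% of the UMIs of tumor ISG+ cells, with a median of 4.15%, and 0 to 41.8% in other tumor cells, with a median of 3.33%. Marker UMIs made up under 2% in 17 of 52 ISG+ cells (32.7%) and in 337 of 895 other cells (37.7%). Among the 13 tumor cells with 10 or more UMIs of the selecting genes, 7 were under 2% (53.8%), and the median was 1.48%. The 20424 CPM of the tumor barcodes of 20 to 60 UMIs is about 2%. For cells under 2% these markers therefore do not stand above RNA outside cells, and the label neutrophil rests on the sort. In blood the median was 15.5% in ISG+ cells and 15.8% in other cells, and 0 of 20 ISG+ cells were under 2%. The blood barcodes of 20 to 60 UMIs stood higher, at 51739 CPM, so 2% is too low a limit for blood. Blood ISG+ cells at 4.31%, 4.82% and 4.86% lay below the level of those barcodes, and for them too the label rests on the sort.

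Markers of other cell types were scarce in tumor ISG+ cells. The 11 monocyte or macrophage markers gave 12 UMIs (285 CPM, 0 to 285 CPM over the 3 mice) against 1870 CPM in other tumor cells (379 to 2113 CPM), and Csf1r, C1qb and C1qc were at 0. The 10 listed MHC class II and dendritic markers gave 12 UMIs in 4 cells (285 CPM, 0 to 356 CPM over the mice), against 2574 CPM in other cells. Per cell the classes were closer. At least 2 such UMIs were held by 3 of 52 ISG+ cells (5.77%) and 39 of 895 other cells (4.36%). For the monocyte or macrophage markers these were 2 (3.85%) and 53 (5.92%). A single ISG+ cell with several hashtags held 7 of the 12 MHC class II and dendritic UMIs and 6 of the 12 monocyte or macrophage UMIs. Markers of B cells, platelets and endothelium were at 0 UMIs, which says little because other tumor cells held at most 31.0 CPM of each list, and those of NK and red cells were at 0 in all tumor cells. In blood ISG+ cells T, B, NK, platelet, endothelial and MHC class II markers were at 0, but 4 of the 20 cells took 49.9% to 59.5% of their UMIs from 5 erythroid markers (hemoglobins and Alas2). The other 16 blood ISG+ cells reached at most 1.14%. Such erythroid-rich cells made up 24 of 1514 other blood cells (1.59%), and their part in the blood results was measured by leaving them out.

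The share of ISG+ cells was higher in each of the 3 tumor mice than in any of the 3 blood mice. Of all cells that passed the limits, 5.49% were ISG+ in tumor (95% exact binomial interval 4.13% to 7.14%) and 1.30% in blood (0.798% to 2.01%). Per mouse the shares were 5.22%, 5.35% and 3.76% in tumor and 1.05%, 1.49% and 1.84% in blood, so the groups did not overlap. Intervals cover counting error only.

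The share was higher in deeper cells. In blood 1 of 406 cells with under 500 UMIs was ISG+ (0.246%), against 12 of 356 cells with at least 1000 UMIs (3.37%). In tumor the shares were 10 of 343 (2.92%) and 9 of 117 (7.69%). Blood ISG+ cells were deep, with a median of 1316 UMIs against 659.5 in other blood cells, whereas tumor ISG+ cells had 608.5 against 573. To set the tissues at 1 depth, each cell was thinned to 467 UMIs by exact calculation, which left out 147 tumor and 289 blood cells below that depth. The expected shares were then 3.41%, 4.09% and 3.66% in the tumor mice and 0.608%, 0.729% and 0.244% in the blood mice. The means were 3.72% ± 0.343 and 0.527% ± 0.252 (SD, n = 3 mice each), a ratio of 7.06. The exact two-sided permutation p was 0.1, the smallest that 3 against 3 unpaired values can give. Both tissues came from the same 3 mice, so the values are not independent. The test left this pairing out, because the labels do not say whether a hashtag number marks the same mouse in tumor and blood.

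**Figure D2:**
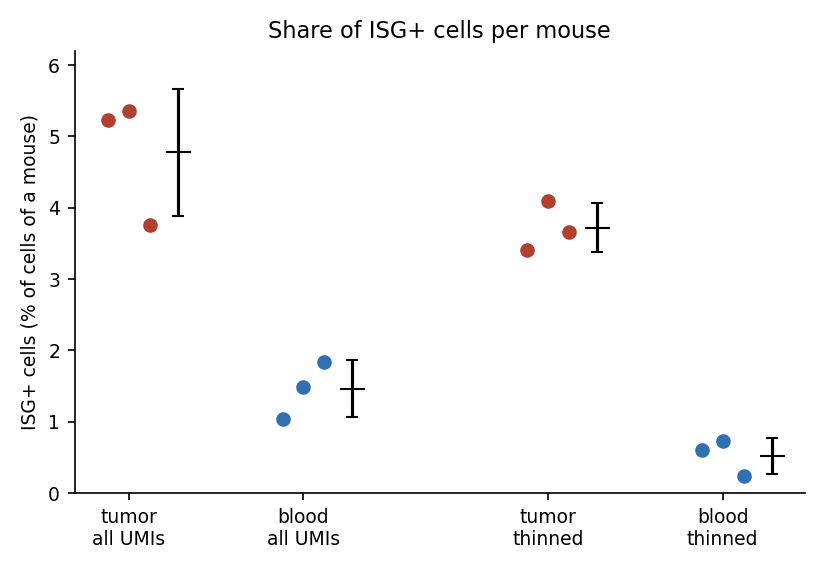
Share of ISG+ cells (y axis, percent of the assigned cells of a mouse) in tumor and blood, with all UMIs and after thinning to 467 UMIs, 1 point per mouse and mean ± SD in black. The tumor mice lie between 3.76% and 5.35% with all UMIs and the blood mice at or below 1.84%.

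The share also rested on which genes were counted. With Rsad2 left out of the rule the thinned share was 1.12% ± 1.19 in tumor and 0.389% ± 0.262 in blood, and the mice of the tissues overlapped (exact permutation p = 0.6). With Isg15 left out it was 1.15% ± 0.685 and 0.273% ± 0.199 without overlap. RNA outside cells held these transcripts too. In barcodes with 20 to 60 UMIs the 6 genes together reached 858 CPM (tumor) and 842 CPM (blood), against 502 and 497 CPM in other cells and 10144 and 3718 CPM in ISG+ cells. Tumor cells with several hashtags were ISG+ in 12 of 123 cases (9.76%), and tumor cells without a hashtag call in 12 of 231 (5.19%).

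Outside the selecting genes, 9 genes were called higher in tumor ISG+ cells: Slfn4, Rtp4, Oasl1, Ddx60, Trim30a, Ifitm3, Isg20, Slfn8 and Gm8995. The comparison asked which other transcripts differ between ISG+ cells and other cells of the same mouse, and it was run as edgeR's quasi-likelihood test on UMIs summed per mouse and class, with the mouse as a block and both tissues in 1 fit. Of 997 genes tested, 13 were called in tumor at an adjusted p under 0.05 (1.3%), 9 higher (0.903%) and 4 lower (0.401%). Log2 fold changes of this fit are printed as fitted. Their median over all genes was -0.25 in tumor and -0.74 in blood with TMM scaling, and -0.17 and -0.19 with library size alone, so a log2 fold change near these medians marks no change. The same 13 tumor genes were called with both scalings. These p-values rest on the spread between mice that share a library.

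Slfn4, a schlafen family gene induced by interferon in myeloid cells, stood at 939, 2513 and 3270 CPM in the ISG+ cells of tumor mice 1, 2 and 3 and at 341, 322 and 244 CPM in their other cells. It was higher in 3 of 3 mice with no overlap, by 2.70 ± 0.42 on the log2 scale (SE, edgeR's adjusted p = 9.45e-08). Rtp4, a chaperone of surface receptors and a regulator of the interferon response, stood at 376, 934 and 2065 CPM against 50.5, 23.9 and 44.4 CPM. Its log2 fold change was 4.64 ± 0.76 (edgeR's adjusted p = 4.37e-07). Slfn4 was detected in 35 and Rtp4 in 25 of all 52 tumor ISG+ cells.

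The other genes called higher had larger adjusted p-values. Oasl1, a relative of Oasl2 that restrains translation of Irf7, gave 9 UMIs in the ISG+ sums and 2 in the far deeper other sums, a ratio of 68.6 in summed CPM (95% exact interval 14.2 to 653, edgeR's adjusted p = 0.0113). Ddx60, a helicase that assists RNA sensing, stood at 376, 575 and 344 CPM against 25.3, 35.8 and 51.7 CPM, higher by 3.37 ± 0.93 (log2, edgeR's adjusted p = 0.0220). Trim30a, a TRIM protein that dampens innate signalling, was higher by 2.73 ± 0.70 (edgeR's adjusted p = 0.0113), with 188, 862 and 516 CPM against 63.2, 53.7 and 126 CPM. Ifitm3, a membrane protein that blocks virus entry, stood at 1315, 1293 and 1721 CPM against 467, 400 and 347 CPM, higher by 1.62 ± 0.43 (edgeR's adjusted p = 0.0147). Isg20, an exonuclease that degrades RNA, and Slfn8 were called as well, at log2 fold changes of 3.04 ± 0.77 and 4.05 ± 1.10 (edgeR's adjusted p = 0.0113 and 0.0205), although both were at 0 UMIs in the ISG+ cells of mouse 1. The same holds for Gm8995, a transcribed pseudogene at chr7:106504239-106511671 (GRCm38), whose reads may come from related genes. It rose by 2.05 ± 0.53 (edgeR's adjusted p = 0.0113) and is named after its values were seen.

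The calls leaned on tumor mice 2 and 3. Oasl1 did not pass the low-count filter with any mouse left out and was not tested there. It was tested in 6 alternative settings and lost its call in 2 of them. Without mouse 3, none of the others of the 9 genes passed the threshold (0 higher and 3 lower of all genes). Rtp4 and Slfn4 were then each at an adjusted p of 0.0628 by edgeR. Without mouse 2, Rtp4 and Slfn4 passed and the others that were tested did not. With each cell thinned, Rtp4 and Slfn4 were the only 2 genes called.

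**Figure D3:**
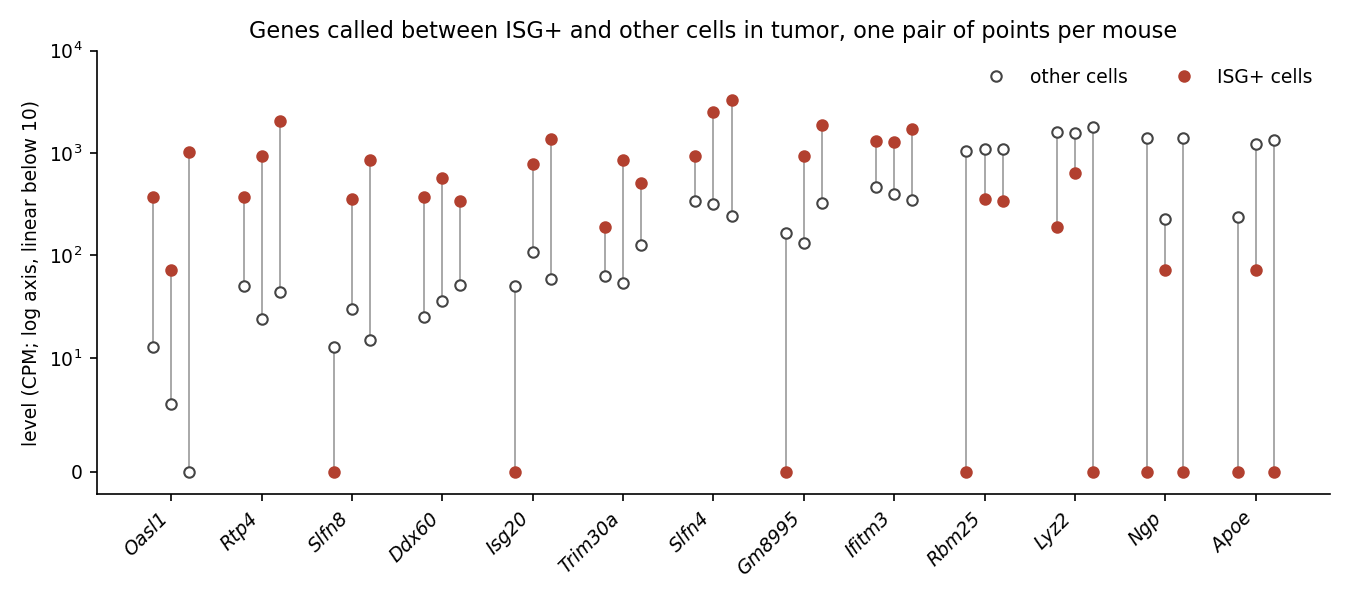
Level (y axis, CPM on a log axis that is linear below 10) of the 13 genes called in tumor, with 1 pair of points for each of the 3 mice, filled for ISG+ and open for other cells. Slfn4, Rtp4, Ddx60, Trim30a, Ifitm3 and Oasl1 are higher in ISG+ cells of all 3 mice, and the 4 genes at the right are lower in all 3.

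The genes called lower in tumor ISG+ cells were Ngp, Lyz2, Apoe and Rbm25. With DESeq2, and with each cell thinned, 0 genes were called lower in tumor. Over the alternative settings the call was lost in 4 of 19 for Ngp, 3 of 19 for Lyz2, 4 of 17 for Apoe and 7 of 19 for Rbm25. Ngp, a secondary granule protein of immature neutrophils, gave 1 UMI in the ISG+ sums against 1415, 227 and 1390 CPM in the other cells of the mice. The other cells were higher by a ratio of 22.2 (95% exact interval 3.95 to 878, edgeR's adjusted p = 0.000193). Lyz2, lysozyme, stood at 188, 646 and 0 CPM against 1592, 1586 and 1804 CPM, lower by 2.39 ± 0.51 on the log2 scale (log2 fold change -2.39, edgeR's adjusted p = 0.000563). Apoe, a lipid carrier abundant in macrophages, gave 1 UMI against 406, and the other cells were higher by a ratio of 26.6 (95% exact interval 4.75 to 1054, edgeR's adjusted p = 0.000186). Apoe is 1 of the 11 macrophage markers whose levels are given above. Rbm25, a splicing factor, stood at 0, 359 and 344 CPM against 1049, 1109 and 1101 CPM (log2 fold change -2.19 ± 0.58, edgeR's adjusted p = 0.0147). These values cover the 28 assigned ISG+ cells, which gave 10 UMIs of Lyz2, 1 of Apoe and 7 of Rbm25. Over all 52 tumor ISG+ cells the counts were 28, 8 and 25 UMIs, and for Ngp 2. Most UMIs of Lyz2, Apoe and Rbm25 thus lay in ISG+ cells outside the fit, although the assigned cells held the larger part of the depth. Camp, the granule peptide precursor, gave 1 UMI against 132 and was not called (edgeR's adjusted p = 0.200).

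Most interferon-induced genes were too rare to test. The lists below were drawn up with earlier results of these data in view, and a gene could pass the low-count filter because it was high in ISG+ cells, so the counts describe the lists and are no support. Of 54 interferon-induced antiviral genes in the files 10 were tested in tumor, 4 were called higher (Oasl1, Rtp4, Isg20 and Ddx60) and 0 lower, beside 0.903% higher and 0.401% lower over all genes, with a median log2 fold change of 1.24 against -0.25 over all genes. Of 24 schlafen, TRIM and PARP genes 9 were tested and 3 called higher (Slfn4, Slfn8 and Trim30a), beside the same 0.903%, with a median of 2.55. Of 14 guanylate-binding and immunity-related GTPases 2 were tested and 0 called, by edgeR or by DESeq2, with 1 at an unadjusted p under 0.05.

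Summed over a list, the level could be compared in every mouse. The antiviral list stood at 3006, 6463 and 9466 CPM in tumor ISG+ cells and at 1554, 1980 and 2255 CPM in other cells, higher in 3 of 3 mice with a ratio of means of 3.27. The schlafen, TRIM and PARP list stood at 6576, 9264 and 9639 CPM against 3007, 2785 and 3792 CPM, a ratio of 2.66 without overlap. The guanylate-binding list stood at 376, 1508 and 1549 CPM against 265, 370 and 784 CPM, with overlap between the groups. The 21 listed nucleic acid sensors, which detect foreign RNA and DNA, stood at 1503, 1293 and 1549 CPM against 695, 853 and 991 CPM, a ratio of 1.71. These sums carry no test.

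Single rare genes are given as counts over all 52 tumor ISG+ cells and 895 other cells. Usp18, which removes Isg15 from proteins, gave 11 UMIs in ISG+ cells and 2 in other cells, and Cmpk2, the neighbour of Rsad2, gave 9 and 2. Ifi47, an immunity-related GTPase, gave 17 and 9 UMIs, and Ifih1, an RNA sensor, gave 13 and 13. Irf7, the regulator that amplifies the interferon response, gave 9 UMIs in 9 cells and 10 in other cells. ISG+ cells hold 52 of the 947 cells, so equal counts mean a higher level per cell. Genes of the signalling chain had smaller differences in level, which were not tested one against another. Irf9, a subunit of the response factor, gave 3 UMIs against 26, and the receptor chains Ifnar1 and Ifnar2 stood at 168 and 240 CPM against 183 and 254 CPM. Mx1 was at 0 in every class, and Cxcl10, an interferon-induced chemokine, gave 8 UMIs that all lay in 1 tumor ISG+ cell. Of 11 listed interferon genes 2 were in the files, with 0 UMIs in the assigned ISG+ cells and 1 UMI in the assigned other cells of tumor.

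**Figure D4:**
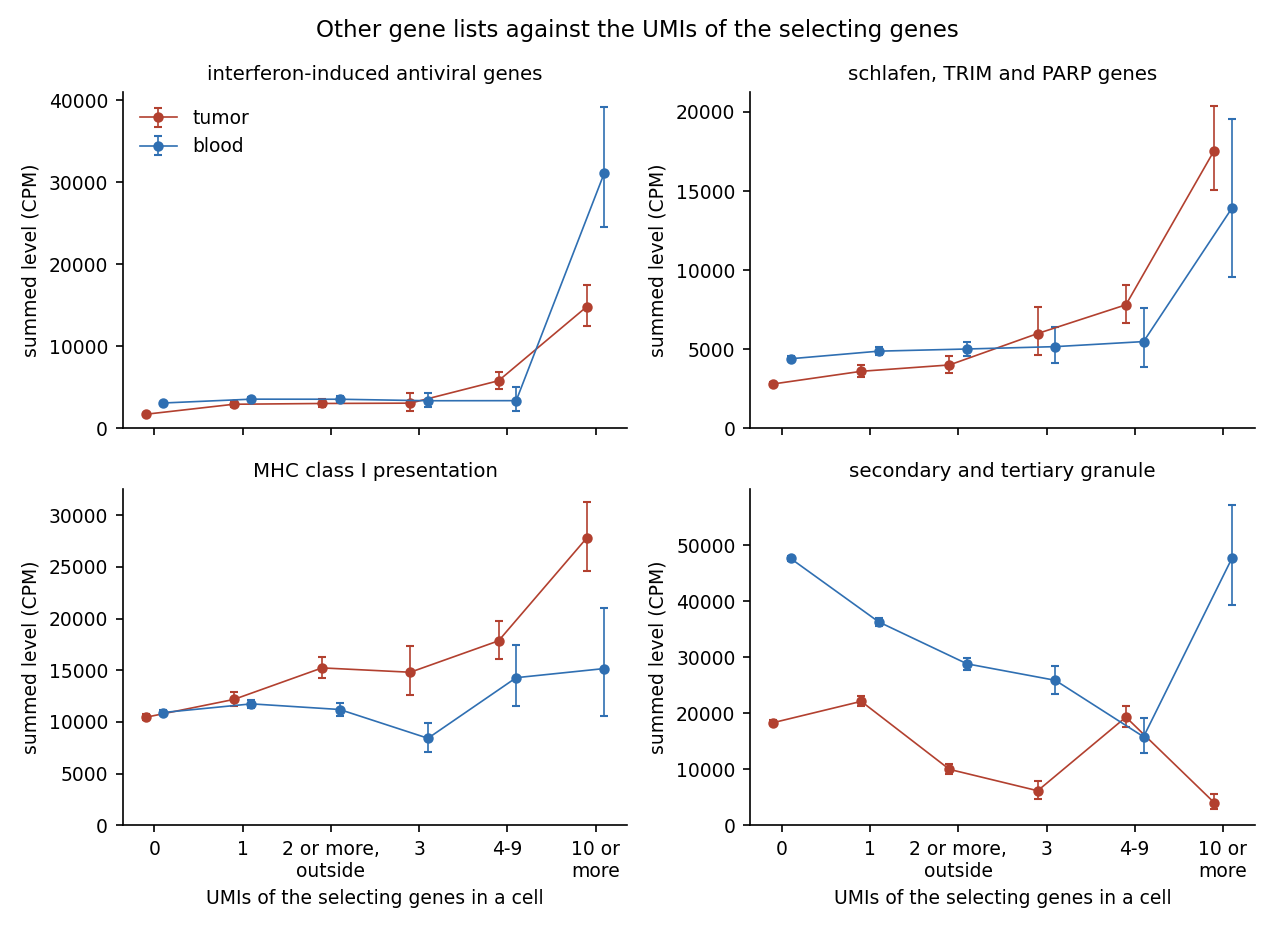
Summed level (y axis, CPM with 95% exact Poisson intervals of the counts) of 4 gene lists in cells grouped by UMIs of the selecting genes (x axis), where "2 or more, outside" marks cells that failed the rule. In tumor the antiviral list runs from 1681 CPM at 0 UMIs to 14818 CPM at 10 or more, and in blood it stays between 3057 and 3527 CPM up to 9 UMIs and reaches 31184 CPM in the last group of 2 cells. The blood groups include the erythroid-rich cells, whose hemoglobin UMIs lower the level of every other list.

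In tumor the level of the other antiviral genes was higher in cells with more selecting UMIs. All cells that passed the limits enter here, assigned to a mouse or not. The intervals hold counting error only and not the spread between mice. The 13 cells with 10 or more selecting UMIs were cells of mice 2 and 3, cells with several hashtags and cells without a hashtag call. The antiviral list stood at 1681 CPM in 686 cells with 0 UMIs, 2905 CPM in 143 cells with 1 UMI, 3039 CPM in the 13 cells with 3 UMIs, 5779 CPM in 26 cells with 4 to 9 and 14818 CPM (12512 to 17426) in the 13 cells with 10 or more. The 66 cells with 2 or more UMIs that failed the rule stood at 2999 CPM (2556 to 3496), within the interval of the cells with 3 UMIs. The schlafen, TRIM and PARP list went from 2787 to 17558 CPM between the first and the last group, and MHC class I presentation genes from 10452 to 27809 CPM. In blood the antiviral list stood at 3057 CPM with 0 UMIs and 3333 CPM (2511 to 4339) in the 12 cells with 3 UMIs. The blood groups with 3 and with 4 to 9 UMIs include the 4 erythroid-rich ISG+ cells, whose antiviral level was 985 CPM. Hemoglobin UMIs count in their total and so lower it. The other 16 blood ISG+ cells, those with 10 or more UMIs included, stood at 7850 CPM. A flat level up to 9 UMIs in blood is therefore not shown. The 2 cells with 14 and 13 UMIs held 53 and 21 antiviral UMIs, 74 of the 151 in all 20 blood ISG+ cells.

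MHC class I genes present peptides to CD8 T cells and are classical interferon targets. Their 22 listed genes stood at 10898, 18025 and 26678 CPM in tumor ISG+ cells and at 10941, 11229 and 12300.5 CPM in other cells, level in mouse 1 and higher in mice 2 and 3. None of the 6 tested members was called by edgeR or DESeq2, and 1 had an unadjusted p under 0.05. B2m, the light chain, had a log2 fold change of 0.45 (edgeR's adjusted p = 0.836). Cd274, which encodes PD-L1, gave 61 UMIs in 30 of 52 tumor ISG+ cells (1464 CPM) and 458 UMIs in other cells (747 CPM). Per mouse it was higher in 2 of 3, with a log2 fold change of 0.44 (edgeR's adjusted p = 0.959).

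Genes of tumor neutrophil metabolism, cytokines and surface proteins were compared as well. Acod1, the itaconate-producing enzyme, stood at 4885, 4022 and 3787 CPM in tumor ISG+ cells and at 2906, 3238 and 3326 CPM in other cells, with a log2 fold change of 0.20 and a 95% interval of -0.47 to 0.86 (edgeR's adjusted p = 0.959). S100a8, a calcium-binding protein of neutrophils, had a log2 fold change of -0.15 and an interval of -0.67 to 0.38 (edgeR's adjusted p = 0.961). Of the tested genes for ferroptosis defence, iron and itaconate (15), hypoxia and glycolysis (16), NF-kB and cytokines (17) and neutrophil surface and migration (25), 0 were called in tumor by edgeR or by DESeq2. At an unadjusted p under 0.05 there were 0, 0, 2 and 2. Over all genes 1.3% were called and 6.82% had an unadjusted p under 0.05, so these counts lie near the share of all genes and are no result about the lists. Their median log2 fold changes were -0.06, -0.02, -0.20 and 0.11, against -0.25 over all genes. Summed per mouse, the 31 NF-kB and cytokine genes stood at 115746, 111670 and 104991 CPM in tumor ISG+ cells against 95453, 79605 and 94028 CPM. The ferroptosis, iron and itaconate list stood at 78918, 82370 and 88985 CPM against 74278, 72997 and 74927 CPM. Both sums were higher in 3 of 3 mice without overlap, by ratios of means of 1.24 and 1.13, and carry no test. Single abundant genes weighed heavily in them. Fth1 gave 1233 of the 2084 UMIs of the ferroptosis, iron and itaconate list in assigned ISG+ cells (log2 fold change -0.01, edgeR's adjusted p = 0.997). Cxcl2 gave 1087 of the 2781 UMIs of the NF-kB and cytokine list (log2 fold change 0.16, edgeR's adjusted p = 0.964). In the 13 tumor cells with 10 or more selecting UMIs the NF-kB and cytokine list stood at 144930 CPM, against 83616 CPM in cells with 0.

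In blood, ISG+ cells had fewer transcripts of Camp, Ngp, Ltf and Lcn2, which encode proteins of secondary granules, the stores that neutrophils fill during maturation in the marrow, and more of Gbp2 and globins. Of 997 genes 8 were called with TMM scaling (0.802%), 2 higher (0.201%) and 6 lower (0.602%). With library size alone it was 11 (1.1%), 7 higher (0.702%) and 4 lower (0.401%), and 6 genes were called with both scalings (Gbp2, Hbb-bt, Camp, Ngp, Ltf and Lcn2). Camp stood at 0, 132 and 113 CPM in ISG+ cells and at 3287, 4576 and 863 CPM in other cells, which were higher by a ratio of 32.3 (95% exact interval 8.94 to 267, edgeR's adjusted p = 3.17e-13). Ngp stood at 192, 265 and 113 CPM against 3279, 4113 and 1233 CPM, with a log2 fold change of -4.47 ± 0.57 (edgeR's adjusted p = 3.47e-12). Ltf, lactoferrin, was at 0 UMIs in ISG+ cells against 844 in other cells, at least 6.10-fold lower against a floor of 3 counts over the group (edgeR's adjusted p = 2.00e-05). Lcn2, an iron-siderophore binder, stood at 0, 1060 and 676 CPM against 2462, 2103 and 1514 CPM (log2 fold change -2.26 ± 0.45, edgeR's adjusted p = 0.000160). In these 4 genes no ISG+ sum of a mouse reached that of its other cells.

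Of 17 tested secondary and tertiary granule genes, 5 were called lower with TMM (0.602% over all genes) and 4 with library size alone (0.401%), and the median of the list was -1.15 against -0.74 over all genes (-0.59 against -0.19 with library size alone). The whole list stood at 20721, 30604 and 32211 CPM in blood ISG+ cells against 47382, 42685 and 34001 CPM in other cells, lower in 3 of 3 mice. By selecting UMIs, over all blood cells, the list stood at 47625 CPM with 0 UMIs, 36288 CPM with 1, 28818 CPM in cells with 2 or more that failed the rule, 25879 CPM in the 12 cells with 3, 15806 CPM in the 6 cells with 4 to 9 and 47619 CPM in the 2 cells with 10 or more. For the summed list, low values were thus shared by cells outside the rule and absent from the 2 cells with the most selecting UMIs. Of the 5 genes called lower, those 2 cells held 0 UMIs of Camp and Ltf, 2 of Ngp, 7 of Lcn2 and 15 of Lyz2. The groups with 3 and with 4 to 9 selecting UMIs include the 4 erythroid-rich cells, where the list stood at 7454 CPM. It stood at 32219 CPM in the other 16 blood ISG+ cells. Camp and Ngp passed in all 18 alternative settings, without the erythroid-rich cells too. With those cells left out, which also drops blood mouse 1 because 4 of its ISG+ cells remain, and with library size alone, Lcn2 had a log2 fold change of -0.91 (edgeR's adjusted p = 0.983) and Ltf an adjusted p of 0.0887. Ifitm1, an interferon-induced membrane protein, and Lyz2 were lower with TMM (log2 fold changes -1.43 ± 0.36 and -1.41 ± 0.39, edgeR's adjusted p = 0.0127 and 0.0466) and were not called with library size alone (adjusted p = 0.619 and 0.751).

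Gbp2, a guanylate-binding protein that attacks pathogen membranes, was the interferon-induced gene called higher in blood with both scalings. It stood at 576, 3180 and 1239 CPM in ISG+ cells and at 196, 267 and 277 CPM in other cells, higher in 3 of 3 mice by 2.03 ± 0.50 on the log2 scale (edgeR's adjusted p = 0.00841). A single cell of mouse 2 held 24 of the 40 Gbp2 UMIs in all blood ISG+ cells, and the call was lost without mouse 2, when 0 genes were called higher, and without mouse 3. Rtp4 stood at 959, 927 and 113 CPM against 72.7, 38.6 and 114 CPM, with a log2 fold change of 2.49 that was not called with TMM (edgeR's adjusted p = 0.0913) and was called with library size alone (3.04, adjusted p = 0.0104). Ifi27l2a and Plac8 behaved in the same way, with adjusted p-values of 0.163 and 0.105 with TMM and 0.0452 and 0.00725 with library size alone. For each of them most counts came from 1 cell (22 of 28 and 24 of 35 UMIs).

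Hemoglobin transcripts were the other group higher in blood ISG+ cells. Hbb-bt, an adult beta-globin, stood at 19954, 17753 and 451 CPM against 1783, 2126 and 1372 CPM, so that mouse 3 went the opposite way (log2 fold change 1.62 ± 0.39, edgeR's adjusted p = 0.00685). Without the erythroid-rich cells its log2 fold change was -0.85 with TMM and -0.10 with library size alone. Hbb-bs and Hba-a1 were called with library size alone and lay below the other cells in mouse 3 too. Reads of the near-identical globin copies may have been split between them. The globins and Plac8 are named after their values were seen.

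**Figure D5:**
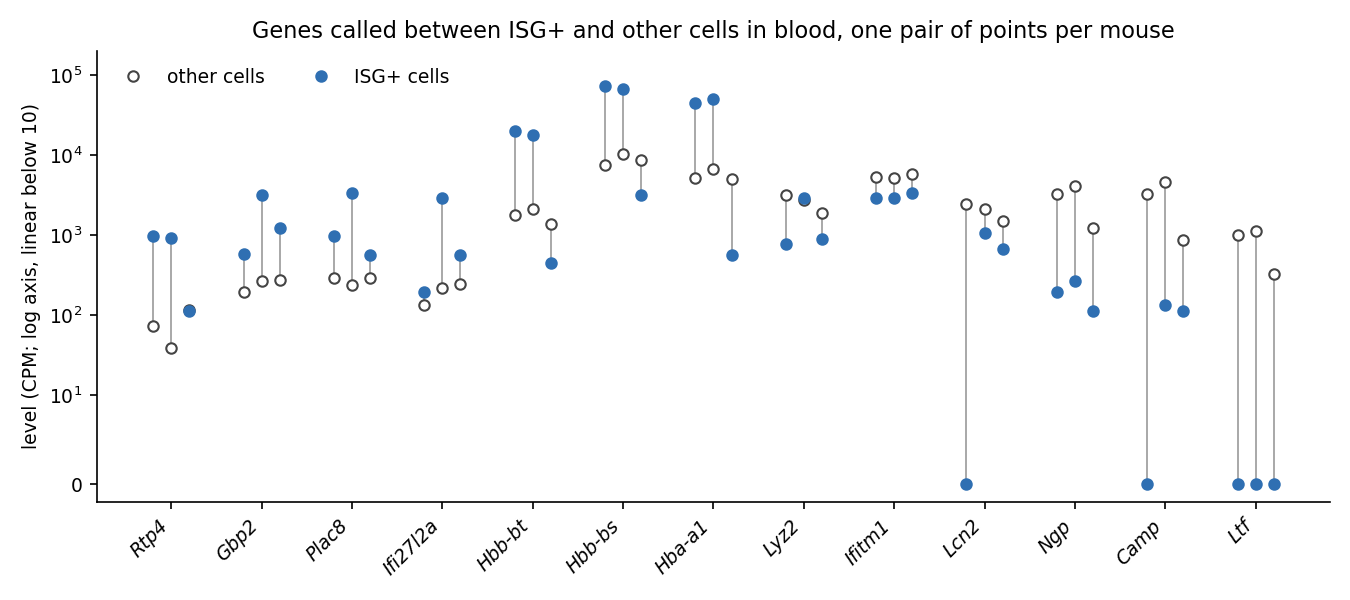
Level (y axis, CPM on a log axis that is linear below 10) of the 13 genes called in blood with either scaling, with 1 pair of points for each of the 3 mice, filled for ISG+ and open for other cells. Camp, Ngp, Ltf and Lcn2 are lower in ISG+ cells of all 3 mice, and the globins are lower in mouse 3 only.

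In blood ISG+ cells the antiviral list stood at 6907, 10334 and 3829 CPM against 3046, 3052 and 3471 CPM, a ratio of means of 2.20 and higher in 3 of 3 mice. A single cell of mouse 2 held 53 of that mouse's 78 antiviral UMIs, and without it mouse 2 stood at 4405 CPM. In mouse 1 a single cell held 21 antiviral UMIs, and that mouse's other ISG+ cells held 12, 1, 1 and 1. Of the 10 tested members of the antiviral list 0 were called by edgeR with TMM and 3 had an unadjusted p under 0.05. With library size alone 2 were called, and with DESeq2 1 was called. Over all genes 0.802% were called with TMM, 15.3% had an unadjusted p under 0.05, and 1.1% were called with library size alone, so the 0 of 10 lies near the share of all genes. The guanylate-binding list stood at 2302, 5564 and 2253 CPM against 474, 621 and 689 CPM, a ratio of 5.67. There too a single cell of mouse 2 held 40 of the 42 UMIs of that mouse, and without it mouse 2 stood at 306 CPM, below its other cells. MHC class I genes stood at 10553, 14043.5 and 10024 CPM against 10969, 11076 and 11755 CPM, with overlap between the groups.

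Whether ISG+ cells differed from other cells in another way in tumor than in blood was tested by the difference of the effects. With TMM, 1 of 997 genes was called (0.1%), and this was Slfn4, whose ISG+ effect was larger in tumor by 2.57 ± 0.62 on the log2 scale (edgeR's adjusted p = 0.0344). The median difference over all genes was 0.57 with TMM and 0.092 with library size alone. In blood Slfn4 stood at 1535, 662 and 225 CPM in ISG+ cells against 476, 389 and 405 CPM in other cells. Its log2 fold change there was 0.13 with TMM, beside a median of -0.74 over all genes. With library size alone the difference was 2.09 and not called (edgeR's adjusted p = 0.624), and 0 genes were called (0%), with 41 at an unadjusted p under 0.05. Genes called in a single tissue are therefore not shown to differ between the tissues.

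Tumor and blood ISG+ cells were also compared with each other. Between tumor and blood ISG+ cells 55 of 85 tested genes were called (64.7%), 33 higher (38.8%) and 22 lower (25.9%) in tumor. Cxcl2, a neutrophil-attracting chemokine, stood at 38331, 40287 and 55422 CPM in tumor ISG+ cells and was at 0 UMIs in blood ISG+ cells, at least 313-fold higher against 3 counts over the blood group (edgeR's adjusted p = 1.43e-05). Acod1 gave 104 UMIs in tumor and 2 in blood, a ratio of 44.9 (95% exact interval 12.1 to 376, edgeR's adjusted p = 7.26e-05). Cd14, a co-receptor for bacterial lipid, was higher in tumor by 5.21 ± 0.70 on the log2 scale (edgeR's adjusted p = 0.000247). Cxcr2, the chemokine receptor that draws neutrophils out of the marrow, stood at 1315, 1077 and 1033 CPM in tumor against 4988, 4769 and 5406 CPM in blood (log2 fold change -2.33 ± 0.39, edgeR's adjusted p = 0.000545). Lrg1, a secreted glycoprotein, was lower in tumor, with a log2 fold change of -2.97 ± 0.48 (edgeR's adjusted p = 0.000539). Other cells of the same mice had Cxcl2 at 34219 CPM (tumor) and 21.7 CPM (blood), Acod1 at 3157 and 8.35 CPM, and Cxcr2 at 915.5 and 6182 CPM. For these 3 genes the tissues thus differed in the same direction outside the ISG+ cells. Tissue is 1 library each in this comparison, and the fit did not pair the tissues of a mouse.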

How the data were processed

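The authors deposited a table of UMI counts per gene and barcode for each tissue, and a table of hashtag counts for the same libraries. Alignment with STAR and the mm10 build are given per the submitters' processing notes; no other setting is given in the sources used here. The tables list 15901 genes and 1315437 UMIs in tumor and 15236 genes and 1969947 UMIs in blood, each over 10000 barcodes. Barcodes with at least 200 genes and at most 15% mitochondrial UMIs were kept and assigned to a mouse with Seurat 5.3.0 (HTODemux, quantile 0.99). Cells with several hashtags were left out of all fits, and no other doublet caller was run.

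The deposited counts were summed per mouse, tissue and class, with sums under 5 cells dropped, the 6 selecting genes removed, and genes filtered by filterByExpr. edgeR 4.0.16 (TMM, quasi-likelihood, Benjamini-Hochberg) was fitted with mouse within tissue as a block, because both sums of a pair come from the same mouse and library. Tumor and blood ISG+ sums were compared in a separate fit without a block. DESeq2 1.42.0 was an alternative. TMM moved small sums on simulated data, so library size alone is printed beside it. CPM values were computed without the 6 genes, except for those genes and the markers. Named genes were the 6 genes, a fixed list of interferon and neutrophil genes, the 10 largest called changes in each direction with the same sign in every mouse, and up to 4 called members of a list. The members and lists were chosen with earlier results of these data known.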

Additional observations from a re-analysis of the deposited data

Results flagged for a closer look

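With TMM scaling the ISG+ effect on Slfn4 differed between the tissues, by 2.57 on the log2 scale (SE 0.62, edgeR's adjusted p = 0.0344). The median of this difference over all genes was 0.57. Slfn4 was higher in ISG+ cells of 3 of 3 mice in tumor and of 2 of 3 mice in blood. The difference passed the threshold in 4 of 17 alternative settings and ranged from 1.43 to 3.32 over them.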

How the results depend on the processing

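The count of genes called was 8 in blood, and it became 4 with DESeq2, 13 without the low-count filter, 13 with no replicate block, 16 with cells thinned and 5 to 24 when 1 mouse was left out. The 13 genes of tumor became 5 with DESeq2, 7 with at least 5 selecting UMIs, 5 with tumor fitted alone, 2 with cells thinned and 3 to 14 when 1 mouse was left out. The single gene of the difference between tissues became 0 with DESeq2, the 70% hashtag rule, library size only, no low-count filter, no cells with markers of another type, thinned cells or cells with at least 500 UMIs. It became 2 with at least 2 selecting UMIs, with no replicate block and without erythroid-rich cells, and 0 to 2 when 1 mouse was left out. The 55 genes between tumor and blood ISG+ cells became 110 with at least 2 selecting UMIs, 109 without the low-count filter, 35 without cells with markers of another type, 15 with cells thinned, 43 to 88 when 1 mouse was left out and 46 with the hashtag number as a replicate block. The labels do not say whether a hashtag number marks the same mouse in both tissues. The thinned share of ISG+ cells was 3.72% in tumor, and it was 4.78% without thinning, 4.67% with the 70% hashtag rule, 4.82% over all barcodes, 5.48% with at least 2 and 1.79% with at least 5 selecting UMIs, 3.13% with at least 300 genes, and 1.15% and 1.12% without Isg15 and Rsad2. In blood it was 0.527%, and 1.46%, 1.22%, 0.150% and 0.273% without thinning, with at least 2 and at least 5 selecting UMIs and without Isg15. With 1 mouse left out it was 3.54% to 3.88% in tumor and 0.426% to 0.668% in blood.

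Over 38 gene results, 486 of 665 alternative values kept direction and side of the threshold, 128 lost the call, 31 gained one and 20 changed sign. Without the low-count filter the log2 fold change was -0.47 for B2m, -0.50 for Cd274 and -0.72 for Acod1 in tumor and -0.28 for Slfn4 in blood. Acod1 was at -0.034 without cells with markers of another type and -0.21 with cells thinned. With 1 mouse left out B2m ran from -0.051 to 0.45, Cd274 from -0.39 to 0.44 and Acod1 from -0.48 to 0.19. Without erythroid-rich cells, an alternative chosen after seeing the data, Hbb-bt was at -0.85 (-0.10 with library size only), Hbb-bs at -0.56, Hba-a1 at -1.82 (-1.07) and Slfn4 in blood at -0.53. With 1 mouse left out Slfn4 in blood ran from -0.65 to 0.47, and Hba-a1 from -0.20 to 2.15. The cause was not tested. The rule of at least 5 selecting UMIs could not be fitted for blood, the difference or the tissues, since too few sums held 5 cells.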
